A study of Mus musculus with 18 samples.

Results

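The inflammatory CC chemokines and the receptors that read them were examined in RNA sequencing of the choroid plexus, the vascular and epithelial tissue of the brain ventricles that secretes cerebrospinal fluid. The 9 genes were 7 ligands (Ccl2, Ccl7, Ccl12, Ccl8, Ccl3, Ccl4 and Ccl5) and 2 receptors (Ccr1 and Ccr2), each found by its symbol as 1 row of a count table of 50584 genes. Libraries came from MRL/lpr mice at 12 weeks (6 libraries), MRL/+ mice at 12 weeks (3), MRL/lpr mice at 16 weeks (6) and MRL/+ mice at 16 weeks (3). On the MRL background, MRL/lpr mice have the lpr allele of Fas, a death receptor gene, and develop a spontaneous lupus-like disease with brain involvement, whereas MRL/+ mice share the background without that allele. The labels name no treatment in any group. Nothing in them states whether each library is a different animal, so p-values measure the spread between libraries, which may be technical in part.

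Chemokines are small secreted proteins that steer leukocytes along concentration gradients, and the CC class is named for its adjacent pair of cysteines. Ccl2, Ccl7 and Ccl12 (a mouse gene) are ligands of Ccr2, the receptor by which inflammatory monocytes leave bone marrow and enter tissue. Ccl3, Ccl4 and Ccl5 are inflammatory proteins that T cells, natural killer cells and myeloid cells make, and Ccl3 and Ccl5 are ligands of Ccr1. Mouse Ccl8 belongs by sequence to the monocyte chemoattractant group and signals mainly through Ccr8 in mice, in contrast to its human counterpart. In bulk tissue such as this, more cells of a type and more RNA per cell cannot be told apart.

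All 9 genes lie in chemokine or chemokine receptor blocks of the genome (GRCm38). Ccl2 (chr11:82035571-82037453), Ccl7, Ccl12 and Ccl8 (chr11:82115185-82116799) lie in 1 block on the plus strand of chromosome 11, and Ccl5 (chr11:83525778-83530518), Ccl3 and Ccl4 in a second block on the same chromosome. Ccr1 (chr9:123962124-123968692) and Ccr2 (chr9:124101950-124113557) lie in a receptor block on chromosome 9. RefSeq promoter windows, from 250 bases before to 50 bases after the RefSeq gene start, were matched for 5 of the 9 genes (Ccl3, Ccl8, Ccl12, Ccr1 and Ccr2). The Ccr2 window (chr9:124101933-124102232) lies almost wholly inside the Ccr2 span given above, so it is not the sequence before that span. The windows of Ccl8 and Ccl12, the most abundant pair of their block in MRL/lpr mice, are printed here from the plus strand (GRCm38.p6, chr11:82114935-82115234 and chr11:82101595-82101894), with the TATAAA box in capitals.
Ccl8: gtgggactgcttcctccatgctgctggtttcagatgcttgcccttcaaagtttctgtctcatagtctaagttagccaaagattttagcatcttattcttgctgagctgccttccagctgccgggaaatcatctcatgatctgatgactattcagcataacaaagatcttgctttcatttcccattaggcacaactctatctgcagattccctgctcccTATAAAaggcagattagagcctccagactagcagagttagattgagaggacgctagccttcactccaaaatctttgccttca
Ccl12: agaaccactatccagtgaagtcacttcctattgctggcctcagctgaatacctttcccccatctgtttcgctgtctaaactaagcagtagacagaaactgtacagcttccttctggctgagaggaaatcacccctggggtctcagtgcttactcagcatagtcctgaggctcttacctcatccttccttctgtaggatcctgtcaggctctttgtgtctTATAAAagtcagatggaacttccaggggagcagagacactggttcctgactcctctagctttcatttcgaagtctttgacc
The box lay 32 bases before the Ccl8 start (position -32) and 31 bases before the Ccl12 start (position -31), and TATAAA on either strand was found in 13.6% of 32851 promoter windows. A further 3 patterns were searched on both strands in all 5 windows and had no match. They were a pair of GAAA with 2 free bases between (the core of the interferon-stimulated response element, in 3.44% of all windows), TTCNNNGAA (the gamma-activated sequence, 8.3%) and GGG with TTTCC after 2 free bases (a form of the NF-kB site, 1.63%). No match says only that these letters are absent from the window, and TATAAA had no match in the windows of Ccl3, Ccr1 and Ccr2.

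Total counts ran from 11164284 to 14602253 per library, and levels are given as CPM, the counts of a gene scaled to a fixed library total after TMM scaling. All 9 genes passed the filter on low counts that left 16598 genes for testing. Ccr2 was at or above the filter's floor of 0.765 CPM, applied before TMM scaling, in 6 MRL/+ libraries, and each other gene in at most 1, so 8 of the 9 could pass only through MRL/lpr libraries and counts of members called are read with that in mind. Choroid plexus epithelium was abundant in every group, with 13 of 13 markers detected. The median sum over these markers was 242000 CPM in MRL/lpr and 272000 CPM in MRL/+ libraries at 12 weeks. At 16 weeks it was 202000 CPM in MRL/lpr and 294000 CPM in MRL/+ libraries. The median log2 fold change of the 13 was -0.3 at 12 weeks and -0.44 at 16 weeks, with 0 and 2 called lower and 0 called higher at each age. Markers of leukocytes moved with the strain. The sum over 13 macrophage markers was 693 to 3770 CPM in MRL/lpr and 107 to 121 CPM in MRL/+ libraries at 12 weeks, and 415 to 3010 CPM in MRL/lpr and 130 to 184 CPM in MRL/+ libraries at 16 weeks. The sum over 11 T cell markers was 50.7 to 235 CPM in MRL/lpr and 1.96 to 2.67 CPM in MRL/+ libraries at 12 weeks (Cd3d, Cd3e and Cd8b1 at 0 in all 3 of these MRL/+ libraries), and 32.0 to 264 CPM in MRL/lpr and 1.99 to 2.19 CPM in MRL/+ libraries at 16 weeks. The sum over 6 monocyte markers was 27.1 to 148 CPM in MRL/lpr and 3.14 to 3.37 CPM in MRL/+ libraries at 12 weeks, and 16.9 to 232 CPM in MRL/lpr and 2.47 to 7.98 CPM in MRL/+ libraries at 16 weeks. At 12 and 16 weeks, 9 and 11 of 13 macrophage markers, 11 and 11 of 11 T cell markers, and 4 and 3 of 6 monocyte markers (5 tested) were called higher. Of all tested genes, 5.01% and 8.49% were called higher at these ages. Markers near 0 in MRL/+ could pass the filter only through MRL/lpr libraries. The part of macrophages, T cells and monocytes in the strain differences was not tested beyond the ratios to markers given with them. A set of 4 libraries had the highest sums of pineal gland, cerebellum or skeletal muscle markers: MRL/lpr 12 weeks replicates 1 and 4 (pineal gland, 66.7 and 58.6 CPM), MRL/+ 12 weeks replicate 1 (cerebellum, 237 CPM) and MRL/+ 16 weeks replicate 1 (skeletal muscle, 515 CPM). Others carried such transcripts too, with cerebellum markers at 105 CPM in MRL/lpr 12 weeks replicate 2 and 111 CPM in MRL/lpr 16 weeks replicate 1, and pituitary markers at 18.2 to 88.1 CPM in all 18 libraries.

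The first comparison asked how the chemokine genes differ between MRL/lpr and MRL/+ choroid plexus at each age. Of the 9 genes, 8 were higher in MRL/lpr mice at 12 weeks, and the same 8 at 16 weeks, by edgeR's quasi-likelihood test at an adjusted p under 0.05. Ccl3 was the exception at both ages. The same test called 6.36% of all tested genes at 12 weeks, 5.01% as higher and 1.34% as lower, and 11.1% at 16 weeks, 8.49% as higher and 2.64% as lower. The median log2 fold change of the 9 genes was 4.36 at 12 weeks and 3.57 at 16 weeks, beside medians of -0.01 and 0.03 over all genes. In 8 of 9 genes at 12 weeks and 7 of 9 at 16 weeks every MRL/lpr library lay above every MRL/+ library, which held for 8.59% and 9.91% of all genes.

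**Figure D1:**
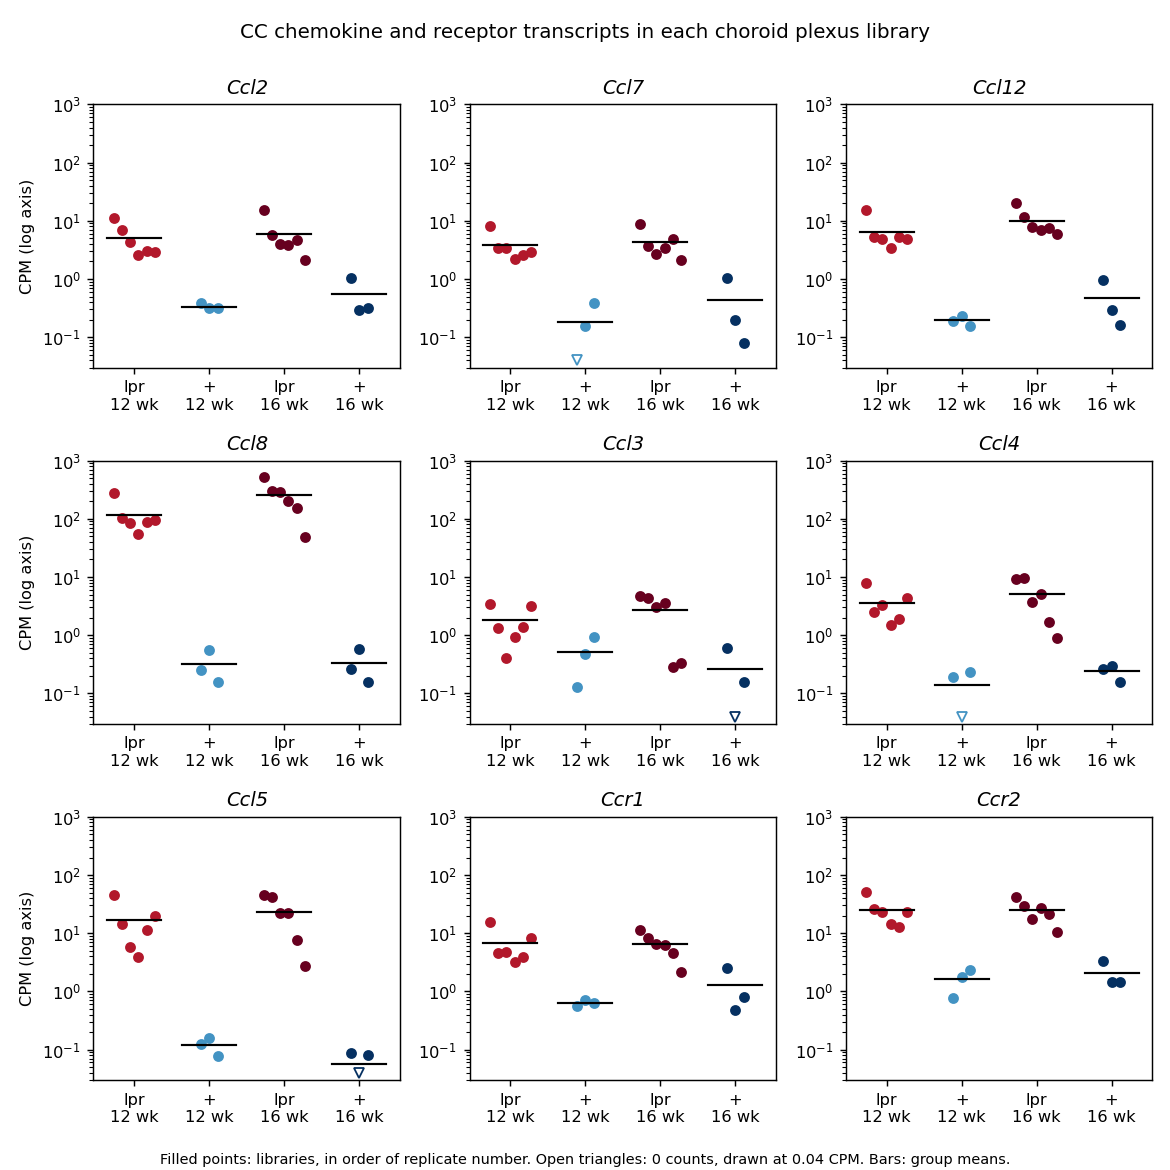
Level of each gene in every library, as CPM on a log axis, with MRL/lpr (lpr, red) left of MRL/+ (+, blue) at each age; bars are group means and open triangles are libraries with 0 counts. MRL/lpr points sit apart from MRL/+ points in all panels except Ccl3 at both ages and Ccr1 at 16 weeks, and Ccl8 reaches the highest levels.

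**Figure D2:**
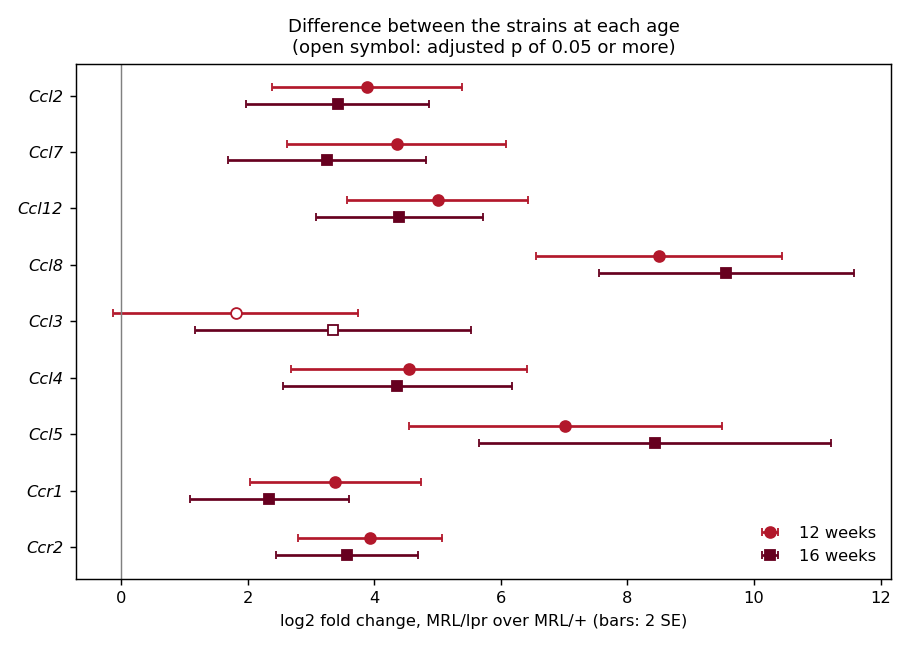
Log2 fold change of MRL/lpr over MRL/+ for each gene at 12 weeks (circles) and 16 weeks (squares), with bars of 2 standard errors; open symbols did not pass the test. Ccl8 and Ccl5 lie farthest to the right at both ages, and only the 12-week bar of Ccl3 crosses 0.

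Among the monocyte chemoattractants, Ccl8 showed the largest fold change of the 9 genes at each age. At 12 weeks its lowest, median and highest MRL/lpr libraries had 55.2, 92.1 and 279.6 CPM, against 0.254, 0.549 and 0.157 CPM in the 3 MRL/+ libraries. At 16 weeks the MRL/lpr libraries had 47.9, 243.2 and 525.8 CPM, against 0.263, 0.585 and 0.159 CPM in MRL/+. The lowest MRL/lpr library was 101-fold above the highest MRL/+ library at 12 weeks and 81.8-fold above it at 16 weeks, so the groups were far apart. The fitted log2 fold change was 8.50 (SE 0.97, adjusted p = 0.00027) at 12 weeks and 9.56 (SE 1.01, adjusted p = 9.7e-05) at 16 weeks. The MRL/+ level rested on 13 counts in 3 libraries at 12 weeks and 11 at 16 weeks. Pooled counts per total gave MRL/lpr over MRL/+ ratios of 364 (95% interval 212 to 683, counting error only) and 826 (462 to 1660).

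Ccl12 neighbours Ccl8 and is a Ccr2 ligand. At 12 weeks its lowest, median and highest MRL/lpr libraries had 3.42, 5.07 and 15.6 CPM, against 0.191, 0.235 and 0.157 CPM in MRL/+, and at 16 weeks MRL/lpr had 5.98, 7.78 and 20.5 CPM, against 0.965, 0.292 and 0.159 CPM in MRL/+. No MRL/lpr library overlapped an MRL/+ library at either age. Its log2 fold change was 5.01 (SE 0.72, adjusted p = 0.0015) at 12 weeks and 4.40 (SE 0.66, adjusted p = 0.0014) at 16 weeks.

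Ccl2 is the prototype monocyte chemoattractant. At 12 weeks the lowest, median and highest MRL/lpr libraries had 2.56, 3.66 and 11.1 CPM, against 0.381, 0.313 and 0.314 CPM in MRL/+. At 16 weeks MRL/lpr had 2.13, 4.36 and 15.6 CPM, against 1.05, 0.292 and 0.319 CPM in MRL/+, so the groups were separate but the margin was 2.02-fold between the nearest libraries. The log2 fold change was 3.89 (SE 0.75, adjusted p = 0.0055) at 12 weeks and 3.42 (SE 0.72, adjusted p = 0.006) at 16 weeks. The span of Ccl2 holds the antisense gene Gm17268, which had 0 counts in all libraries.

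Ccl7 is the other Ccr2 ligand of the block. At 12 weeks MRL/lpr libraries had 2.17, 3.16 and 8.17 CPM (lowest, median and highest), against 0, 0.157 and 0.392 CPM in MRL/+, and at 16 weeks MRL/lpr had 2.13, 3.56 and 8.78 CPM, against 1.05, 0.195 and 0.0798 CPM in MRL/+. The groups were separate at both ages. The log2 fold change was 4.36 (SE 0.87, adjusted p = 0.0065) at 12 weeks and 3.25 (SE 0.78, adjusted p = 0.013) at 16 weeks. For 7 of the 9 genes (Ccl2, Ccl3, Ccl5, Ccl7, Ccl12, Ccr1 and Ccr2) the highest of the 16-week MRL/+ libraries was replicate 1, the one with skeletal muscle transcripts. That library also had the highest monocyte, macrophage and neutrophil marker sums of its group (7.98, 184 and 10.7 CPM). The part of any of these in its levels was not tested. Within this block Ccl11, an eosinophil chemoattractant, was almost uncounted, with 17 counts in MRL/lpr and 3 in MRL/+ libraries at 12 weeks, and 14 in MRL/lpr and 2 in MRL/+ libraries at 16 weeks.

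Among Ccl3, Ccl4 and Ccl5, Ccl5 was the most abundant per kilobase in MRL/lpr mice and had the next largest fold change after Ccl8. At 12 weeks its lowest, median and highest MRL/lpr libraries had 3.88, 12.9 and 46.1 CPM, against 0.127, 0.157 and 0.0784 CPM in MRL/+. At 16 weeks MRL/lpr had 2.79, 22.3 and 44.9 CPM, against 0.0877, 0 and 0.0798 CPM in MRL/+, so the strains were separate at both ages. Only 5 reads at 12 weeks and 2 reads at 16 weeks fell on Ccl5 in all MRL/+ libraries. The log2 fold change at 12 weeks was 7.02 (SE 1.24, adjusted p = 0.0038). At 16 weeks the gene passed the test (adjusted p = 0.0019), and its size is given as the ratio of pooled counts per total, 425, with a counting interval of 118 to 3520.

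Ccl4 was higher in MRL/lpr libraries at both ages and Ccl3, which lies beside it in the genome, did not pass. Ccl4 had 1.51, 2.88 and 8.01 CPM in the lowest, median and highest MRL/lpr libraries at 12 weeks, against 0.191, 0 and 0.235 CPM in MRL/+, and 0.901, 4.35 and 9.62 CPM in MRL/lpr at 16 weeks, against 0.263, 0.292 and 0.159 CPM in MRL/+. Its log2 fold change was 4.55 (SE 0.94, adjusted p = 0.0076) at 12 weeks and 4.37 (SE 0.91, adjusted p = 0.0056) at 16 weeks, with no overlap of the strains.

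Ccl3 had the widest spread of the 9 genes between MRL/lpr libraries at 16 weeks, as highest over lowest. At 12 weeks MRL/lpr had 0.403, 1.35 and 3.50 CPM (lowest, median and highest), against 0.127, 0.470 and 0.941 CPM in MRL/+, and at 16 weeks MRL/lpr had 0.284, 3.28 and 4.78 CPM, against 0.614, 0 and 0.159 CPM in MRL/+. At each age 4 of 6 MRL/lpr libraries lay above every MRL/+ library. The 16-week MRL/lpr libraries fell apart, with replicates 5 and 6 at 0.284 and 0.328 CPM and the other 4 between 3.01 and 4.78 CPM. The log2 fold change was 1.81 (SE 0.97, adjusted p = 0.30, interval of 2 SE -0.13 to 3.75) at 12 weeks and 3.35 (SE 1.09, adjusted p = 0.057, interval 1.17 to 5.52) at 16 weeks. The 16-week difference of Ccl3 passed with DESeq2 (adjusted p = 0.00684), with limma voom (0.0216) and without MRL/lpr 16 weeks replicate 5 (0.0262) or 6 (0.0271).

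The receptor Ccr2 marks inflammatory monocytes and some T cells. It had 12.5, 23.0 and 50.1 CPM in the lowest, median and highest MRL/lpr libraries at 12 weeks, against 0.763, 1.80 and 2.35 CPM in MRL/+, and 10.5, 24.3 and 41.6 CPM in MRL/lpr at 16 weeks, against 3.33, 1.46 and 1.44 CPM in MRL/+. The strains did not overlap, and Ccr2 was the only one of the 9 genes with at least 10 counts in every MRL/+ library. Its log2 fold change was 3.93 (SE 0.57, adjusted p = 0.0016) at 12 weeks and 3.57 (SE 0.56, adjusted p = 0.0016) at 16 weeks.

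Ccr1, a receptor for Ccl3, Ccl5 and Ccl7 on myeloid cells, had the smallest called differences. At 12 weeks MRL/lpr had 3.22, 4.74 and 15.6 CPM (lowest, median and highest), against 0.572, 0.705 and 0.628 CPM in MRL/+. At 16 weeks MRL/lpr had 2.13, 6.34 and 11.5 CPM, against 2.54, 0.487 and 0.798 CPM in MRL/+, and 5 of 6 MRL/lpr libraries lay above every MRL/+ library. The log2 fold change was 3.39 (SE 0.68, adjusted p = 0.0068) at 12 weeks and 2.34 (SE 0.63, adjusted p = 0.024) at 16 weeks. These calls were lost when some single MRL/+ libraries were left out: without MRL/+ 12 weeks replicate 1 the 12-week adjusted p was 0.0537, and without MRL/+ 16 weeks replicate 2 or 3 the 16-week adjusted p was 0.109 or 0.124. Calls were also lost for Ccl4 at 12 weeks without MRL/+ replicate 1 (0.0527) or 2 (0.0506), for Ccl7 at 16 weeks without MRL/+ replicate 2 (0.0739) or 3 (0.08), and for Ccl2 at 16 weeks without MRL/+ replicate 3 (0.0512). Leaving out any 1 MRL/+ library also lowered the calls over all genes. Genes called higher fell from 832 to between 225 and 320 at 12 weeks, and from 1410 to between 563 and 685 at 16 weeks. Without the 4 libraries highest in pineal gland, cerebellum or skeletal muscle markers, which left 4 MRL/lpr and 2 MRL/+ libraries at 12 weeks, Ccl8, Ccl12 and Ccr2 passed at 12 weeks, while Ccl2, Ccl4, Ccl5, Ccl7 and Ccr1 had log2 fold changes of 3.77, 4.61, 6.72, 3.48 and 3.04 with adjusted p between 0.0574 and 0.11. All 9 genes kept a positive log2 fold change in each alternative fit of the strain comparisons.

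The order of transcript levels was compared per kilobase of exon, since the genes differ in length. In MRL/lpr mice Ccl8 was above each other gene in 6 of 6 libraries at both ages, with 231.2 ± 158.2 CPM per kilobase (SD, n = 6) at 12 weeks and 493.5 ± 319.1 (SD, n = 6) at 16 weeks, which was 13.1 and 20.1 times the mean of the next gene, Ccl5. Ccl5 at 17.7 ± 16.1 and Ccl12 at 12.2 ± 8.35 CPM per kilobase (SD, n = 6) did not differ beyond their spread at 12 weeks, with Ccl5 the higher in 4 of 6 libraries. Ccl4, Ccl7 and Ccl2 followed within their spread, at 5.45, 4.72 and 4.51 CPM per kilobase on average at 12 weeks, and Ccr2, Ccr1 and Ccl3 came last with 3.68, 2.37 and 2.34. In MRL/+ libraries no such order was seen: all 9 means lay between 0.126 and 0.669 CPM per kilobase at 12 weeks and between 0.0582 and 0.880 at 16 weeks, with Ccl5 the lowest at both ages.

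The make-up of the ligand pool differed between strains through Ccl8. Ccl8 made up 83.5 ± 1.95% (SD, n = 6) of the 7 ligands' CPM per kilobase in MRL/lpr and 25.7 ± 14.5% (SD, n = 3) in MRL/+ libraries at 12 weeks, and 87.5 ± 3.10% in MRL/lpr and 24.3 ± 17.6% in MRL/+ libraries at 16 weeks. The shares ran from 80.1 to 91.1% over the 12 MRL/lpr libraries, although their ligand sums ran from 114 to 1160 CPM per kilobase. The difference in share was past the spread at both ages (two-sided exact permutation test, p = 0.0119, the smallest p that 6 against 3 libraries allow, 0.0185 after Benjamini-Hochberg adjustment over 14 shares). The shares sum to 100%, so a larger share of Ccl8 lowers the shares of the others whatever their levels do, and these are given as a description. Ccl12 was at 4.45 ± 0.451% in MRL/lpr and 15.2 ± 5.22% in MRL/+ libraries at 12 weeks, and Ccl2 at 1.67 ± 0.496% in MRL/lpr and 12.7 ± 5.41% in MRL/+ libraries. Ccl5 was at 5.74 ± 2.26% in MRL/lpr and 5.36 ± 2.43% in MRL/+ libraries at 12 weeks, and at 4.03 ± 1.49% in MRL/lpr and 2.34 ± 2.81% in MRL/+ libraries at 16 weeks. Shares in MRL/+ rest on 14 to 49 ligand counts per library, against 758 to 9752 in MRL/lpr, and are imprecise.

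**Figure D3:**
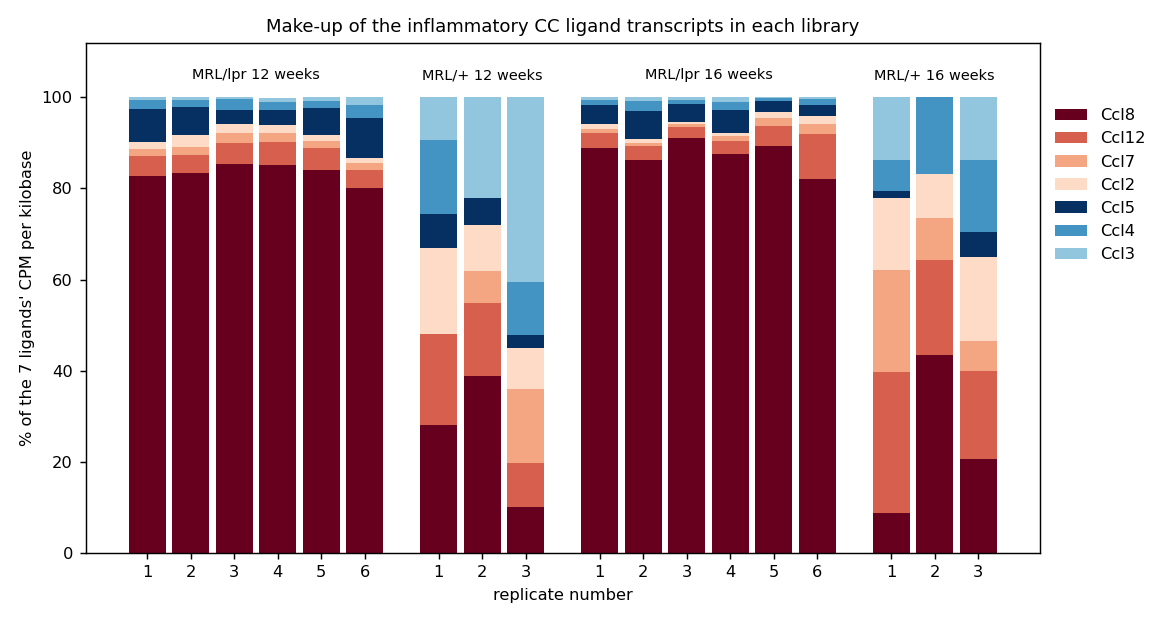
Percentage of the summed CPM per kilobase of the 7 ligands that each ligand contributes, 1 stacked bar per library, grouped by strain and age with MRL/lpr left of MRL/+. Ccl8 fills between 80.1 and 91.1% of each MRL/lpr bar and between 8.81 and 43.5% of each MRL/+ bar.

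The ligand and receptor levels were also set against macrophage markers, as CPM of the gene in percent of the summed CPM of the 13 markers. Ccl8 was 7.99 ± 1.62% (SD, n = 6) of the marker sum in MRL/lpr and 0.275 ± 0.167% (SD, n = 3) in MRL/+ libraries at 12 weeks, and 14.3 ± 3.36% in MRL/lpr and 0.215 ± 0.143% in MRL/+ libraries at 16 weeks, ratios of 29.1 and 66.5 (two-sided exact permutation test, p = 0.0119 each, 0.0459 adjusted over 27 tests). The Ccl8 difference was thus larger than that of the markers. Ccl5, Ccl12 and Ccl4 were higher relative to the markers in MRL/lpr at 12 weeks, by 9.58, 2.68 and 1.90 times (exact permutation test, adjusted p = 0.0459), and at 16 weeks Ccl5 was 34.3 times higher (adjusted p = 0.0804) and Ccl12 and Ccl4 were 2.60 and 1.85 times higher (adjusted p = 0.297 each). The other 3 ligands overlapped between the strains at both ages. The ratio of MRL/lpr to MRL/+ was 1.24 for Ccl2, 1.77 for Ccl7 and 0.277 for Ccl3 at 12 weeks (exact permutation test, adjusted p = 0.708, 0.367 and 0.143), and 1.13, 1.23 and 0.912 at 16 weeks (adjusted p = 0.887, 0.752 and 0.887, exact test).

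Ccr2 was 1.76 ± 0.458% of the marker sum in MRL/lpr and averaged 1.39% (0.71 to 1.94%) in MRL/+ libraries at 12 weeks, and 1.69 ± 0.678% in MRL/lpr and 1.29 ± 0.459% in MRL/+ libraries at 16 weeks, with overlap at both ages (exact permutation test, adjusted p = 0.621 and 0.683). Ccr1 was 0.439 ± 0.0242% in MRL/lpr and 0.547 ± 0.0368% in MRL/+ libraries at 12 weeks, lower in each MRL/lpr library than in each MRL/+ library (exact permutation test, adjusted p = 0.0459), and 0.411 ± 0.103% in MRL/lpr and 0.770 ± 0.549% in MRL/+ libraries at 16 weeks (adjusted p = 0.257). The 12-week receptor ratios depended on 1 marker, the lysozyme gene Lyz2, which averaged 1006 CPM in MRL/lpr and 35.1 CPM in MRL/+ libraries at 12 weeks. Without Lyz2 in the sum the 12-week ratio of MRL/lpr to MRL/+ was 1.49 for Ccr1 and 2.31 for Ccr2 (exact permutation test, adjusted p = 0.0964 each). Against Csf1r alone, the growth factor receptor of macrophages, it was 3.46 for Ccr1 and 5.26 for Ccr2 (adjusted p = 0.0877 each). The 12-week ratios of Ccl2, Ccl7 and Ccl3 moved too, to 2.33, 3.15 and 0.478 without Lyz2 (adjusted p = 0.124, 0.0877 and 0.201, exact test). Against Csf1r alone these were 5.51, 6.88 and 0.986 (adjusted p = 0.0877, 0.0877 and 0.952, exact test), and the strains overlapped for Ccl3 only. At 12 and 16 weeks the ratios of Ccl8 were 53.5 and 97.3 without Lyz2 (exact permutation test, p = 0.0119 each, adjusted p = 0.0643), 129 and 214 against Csf1r alone (adjusted p = 0.0877, exact test), and 7.48 and 9.62 against the T cell marker sum (adjusted p = 0.0321, exact test). Against that T cell sum Ccr1 was lower in MRL/lpr, at 0.209 and 0.0738 times the MRL/+ value (adjusted p = 0.0321, exact test). Ccl4 and Ccl12 also turned against the T cell sum, with ratios of 0.544 and 0.245 for Ccl4 (adjusted p = 0.337 and 0.0321, exact test) and 0.716 and 0.37 for Ccl12 (adjusted p = 0.321 and 0.161, exact test). Below 1 as well were Ccl2 at 0.341 and 0.161 (adjusted p = 0.0321 each, exact test) and Ccr2 at 0.32 and 0.187 (0.0804 and 0.0321). Ccl7 had 0.429 and 0.171 (adjusted p = 0.304 and 0.0989, exact test) and Ccl3 0.0632 and 0.111 (0.0321 and 0.152). The MRL/+ sums in this ratio were small, at 1.96 to 2.67 CPM at 12 weeks and 1.99 to 2.19 CPM at 16 weeks. The Ccl8 ratio was above 1 with each of the 4 denominators at both ages, and so was that of Ccl5. At 12 and 16 weeks Ccl5 had 17.9 and 49.5 without Lyz2 (adjusted p = 0.0643 and 0.0877, exact test) and 42.3 and 94.8 against Csf1r alone (0.0877 each). Against the T cell sum it had 2.47 and 4.59 (adjusted p = 0.0804 and 0.0321, exact test). The alternatives to the macrophage sum were chosen after its values were seen.

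**Figure D4:**
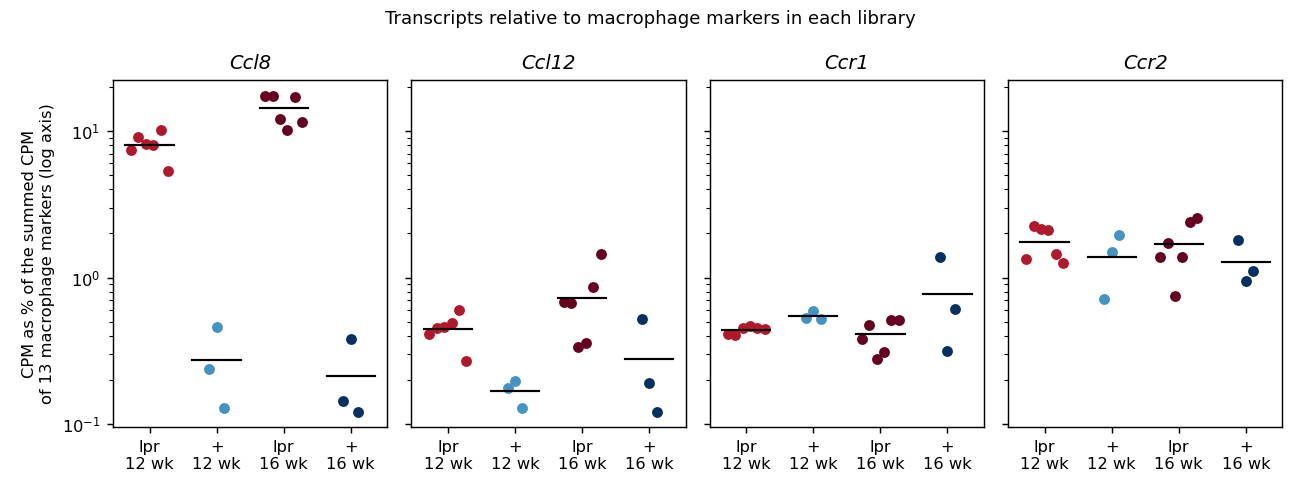
CPM of Ccl8, Ccl12, Ccr1 and Ccr2 as a percentage of the summed CPM of 13 macrophage markers in each library, on a log axis, with MRL/lpr (red) left of MRL/+ (blue) at each age and bars for group means. Ccl8 lies between 5.31 and 17.4% in MRL/lpr and between 0.122 and 0.458% in MRL/+, while the Ccr2 points of the strains overlap.

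The second comparison asked whether levels differ between 16 and 12 weeks within a strain. None of the 9 genes passed in MRL/lpr mice by edgeR's quasi-likelihood test, where 0.0361% of all genes did (0.0181% higher and 0.0181% lower), and 1 of the 9, Ccl8, had an unadjusted p under 0.05. DESeq2 and limma voom called none of the 9 either. Ccl8 averaged 252.2 ± 163.1 CPM at 16 weeks and 118.1 ± 80.8 CPM at 12 weeks in MRL/lpr (SD, n = 6 each), and the ages overlapped. By edgeR the log2 fold change was 1.10 (SE 0.45, interval of 2 SE 0.21 to 1.99, unadjusted p = 0.025 and adjusted p = 0.63). Ccl12 came next with 10.1 ± 5.41 CPM at 16 weeks and 6.55 ± 4.48 CPM at 12 weeks, a log2 fold change of 0.63 (SE 0.40, adjusted p = 0.79 by edgeR). The receptors stood close to 0, with log2 fold changes of -0.04 for Ccr1 (interval of 2 SE -0.92 to 0.84) and -0.01 for Ccr2 (-0.72 to 0.71). Of the 9 estimates, 7 were positive, with a median of 0.48 beside 0.02 over all genes.

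Relative to the macrophage marker sum, Ccl8 was 14.3 ± 3.36% at 16 weeks and 7.99 ± 1.62% at 12 weeks in MRL/lpr mice, 1.79 times higher. Libraries ran from 10.2 to 17.4% at 16 weeks and from 5.31 to 10.1% at 12 weeks, so the ages did not overlap (exact permutation test, p = 0.00216, the smallest that 6 against 6 allow, 0.0459 adjusted over 27 tests). The ratio was 1.60 without Lyz2 (p = 0.026, exact test), 1.86 against Csf1r alone (p = 0.0649, exact test) and 1.35 against the T cell marker sum (p = 0.134, exact test), and with adjustment over 27 tests none of these 3 passed (0.0877, 0.125 and 0.213). The share of Ccl8 in the ligand pool was 4.03 percentage points higher at 16 weeks (exact permutation test, p = 0.026), but without MRL/lpr 12 weeks replicate 6 or 16 weeks replicate 3 the exact p was 0.0519 or 0.0541.

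In MRL/+ mice none of the 9 genes passed between 16 and 12 weeks by edgeR (0% of all genes were called, and none of the 9 had an unadjusted p under 0.05), and DESeq2 and limma voom called none of the 9. Their log2 fold changes ran from -0.94 (Ccl5) to 1.29 (Ccl7), with wide standard errors of 0.61 to 2.35. The strain difference itself was not shown to differ between the ages: the interaction of strain and age was not called for any of the 9 by edgeR (0% of all genes, no unadjusted p under 0.05 among the 9), DESeq2 or limma voom. Its largest positive estimate was 1.54 for Ccl3 (SE 1.41, adjusted p = 0.57) and its largest negative one -1.11 for Ccl7 (SE 1.10, adjusted p = 0.60).

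Libraries of MRL/lpr mice differed several-fold from each other, and the 9 genes largely moved together. At 12 weeks replicate 1 was the highest library for all 9 genes and replicate 4 the lowest for 7. At 16 weeks replicate 1 was the highest for 8, with replicate 2 highest for Ccl4, and replicate 6 the lowest for 8. The highest library exceeded the lowest by 3.77-fold (Ccl7) to 11.9-fold (Ccl5) at 12 weeks and by 3.42-fold (Ccl12) to 16.8-fold (Ccl3) at 16 weeks. The 12-week replicate 1 also had the largest macrophage marker sum of its group, 3770 CPM, and carried pineal transcripts, and the 16-week replicate 6 had the smallest macrophage sum, 415 CPM.

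Over the 12 MRL/lpr libraries, correlations of log2 CPM after subtracting each age's mean described how the genes moved together. They are descriptions of libraries that share a composition, with no p-value. Ccl2 went with its block neighbours Ccl7 (Pearson r = 0.93, Spearman rho = 0.895, and r = 0.773 without the 2 libraries farthest from the median) and Ccl12 (r = 0.902, rho = 0.769, and r = 0.703 without 2). Ccl5 went with Ccl4 (r = 0.924, rho = 0.93, and 0.856 without 2) and Ccl3 (r = 0.902, rho = 0.93, and 0.882 without 2). Coefficients with genes outside the block were similar, for Ccl5 with Ccr1 (r = 0.932, rho = 0.965, and 0.871 without 2) and for Ccl2 with Ccr2 (r = 0.888, rho = 0.804, and 0.787 without 2). The lowest of 36 pairs by Pearson r was Ccl3 and Ccl7 (r = 0.388, rho = 0.343, and 0.448 without 2). Ccl12 was not set apart from the block of Ccl5, since its coefficient with Ccl5 (r = 0.788, rho = 0.825, and 0.756 without 2) was above that with Ccl7 (r = 0.911, rho = 0.622, and 0.571 without 2) by rho and without 2 libraries. Ccl8 was close to Ccr1 (r = 0.941, rho = 0.902, and 0.883 without 2), Ccl5 (r = 0.934, rho = 0.951, and 0.867 without 2) and its neighbour Ccl12 (r = 0.851, rho = 0.86, and 0.906 without 2), and which of the 3 was closest depended on the measure.

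Against marker lists, Ccl5 was closest to the cytotoxic and natural killer list (r = 0.968, rho = 0.986, and 0.935 without 2). By Pearson r, Ccr1 and Ccr2 were closest to the monocyte list (r = 0.944, rho = 0.951, and 0.942 without 2 for Ccr1, and r = 0.903, rho = 0.818, and 0.811 without 2 for Ccr2). By rho both were closer to the cytotoxic and natural killer list (0.979 for Ccr1 and 0.846 for Ccr2). Ccl8 was similar to both lists (cytotoxic r = 0.925, monocyte r = 0.901). Ccl2, Ccl7 and Ccl12 were also closest to the monocyte list by Pearson r, with r of 0.788, 0.728 and 0.777 (0.723, 0.658 and 0.867 without 2). Their rho was higher with the cytotoxic and natural killer list (0.713, 0.573 and 0.804) than with the monocyte list (0.601, 0.517 and 0.636). The cerebellum list had a rho of 0.713 with Ccl2 as well. Against T cell markers the r of Ccl2, Ccl7 and Ccl12 was 0.595, 0.556 and 0.637, and 0.306, 0.23 and 0.481 without 2 libraries. Against epithelial markers the 9 coefficients lay between -0.505 (Ccl3) and -0.003 (Ccl7).

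**Figure D5:**
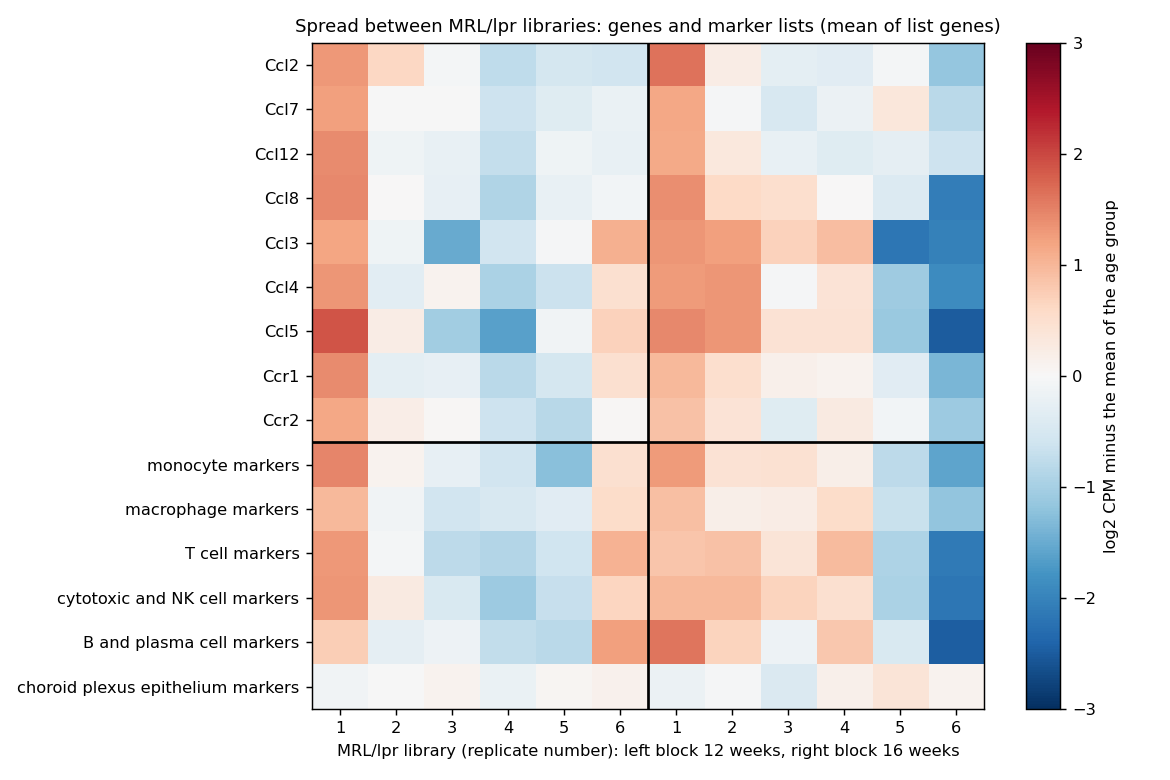
Log2 CPM of each gene (upper rows) and mean log2 CPM of marker lists (lower rows) in the 12 MRL/lpr libraries, as the difference from the mean of the age group (red above, blue below). Replicate 1 is red for all 9 genes at both ages, 16-week replicate 6 is blue for all 9, and the epithelial row is pale throughout.

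The genes whose pattern over the 12 MRL/lpr libraries was most like each of the 9 were sought among 12390 candidates. For Ccl8 they were S100a10 (r = 0.972) and Gmfg (r = 0.969), for Ccl12 Aif1 (r = 0.965) and Ctsh (r = 0.95), and for Ccl7 Clec4a2 (r = 0.964) and Ctsh (r = 0.948). For Ccl2 they were Ifi35 and Clec12a (r = 0.939 each), for Ccl3 Clcf1 (r = 0.973) and Capn1 (r = 0.97), and for Ccl4 Phf11a (r = 0.964) and Gbp8 (r = 0.962). For Ccr1 they were Cd52 (r = 0.983) and Clec2d (r = 0.982), and for Ccr2 Tfec (r = 0.964) and Gpr65 (r = 0.958). For Ccl5 they were H2-Q10 (r = 0.974), whose reads cannot be placed with certainty among the closely similar class I genes, and Knstrn (r = 0.97). Without the 2 farthest libraries these coefficients ran from 0.794 (Ccl7 and Ctsh) to 0.976 (Ccl5 and Knstrn).

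Of 13 further CC ligands and 12 further CC receptors, 18 were tested, and 5 at 12 weeks and 7 at 16 weeks were called higher in MRL/lpr, by edgeR's quasi-likelihood test. Of all tested genes, 5.01% at 12 weeks and 8.49% at 16 weeks were called higher. Ccl22, Ccr7 and Ccr8 lay below the filter's floor in every MRL/+ library, so they could pass the filter only through MRL/lpr libraries. The median log2 fold change was 1.65 at 12 weeks and 0.50 at 16 weeks over the ligands tested, and 1.63 at 12 weeks and 1.90 at 16 weeks over the receptors tested. These 4 medians were the same with genes at 0 in MRL/+ set at their bound. The ligand Ccl6, which lies in the block of Ccl3, Ccl4 and Ccl5, had log2 fold changes of 2.92 (SE 0.72, adjusted p = 0.021) at 12 weeks and 2.40 (SE 0.69, adjusted p = 0.034) at 16 weeks. Its neighbour Ccl9 did not pass, at 0.84 (SE 0.39, adjusted p = 0.23) and 0.42 (SE 0.39, adjusted p = 0.47), with 100.9 CPM on average in MRL/+ libraries at 12 weeks and 188.7 CPM at 16 weeks. Ccl22, a dendritic cell ligand of Ccr4, had 184 counts in MRL/lpr and 2 in MRL/+ libraries at 12 weeks (ratio 47.7, counting interval 13 to 397), and 173 in MRL/lpr and 0 in MRL/+ libraries at 16 weeks, at least 25.3-fold higher against a floor of 3 counts over the group.

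Ccr8, the receptor of mouse Ccl8, had 60 counts in MRL/lpr and 0 in MRL/+ libraries at 12 weeks, at least 10.4-fold higher, and 65 in MRL/lpr and 0 in MRL/+ libraries at 16 weeks, at least 9.50-fold higher, and it passed at 16 weeks (adjusted p = 0.047) but not at 12 weeks (0.056). Ccr7, which guides lymphocytes and dendritic cells to lymphoid tissue, and Ccrl2, a non-signalling receptor, passed at both ages (for Ccrl2, 2.42 on the log2 scale, SE 0.60, adjusted p = 0.022 at 12 weeks), and Ccr6 passed at 16 weeks (3.00, SE 0.82, adjusted p = 0.027). Ccr7 had 155 counts in MRL/lpr and 2 in MRL/+ libraries at 12 weeks (ratio 40.2, counting interval 10.9 to 335), and 203 in MRL/lpr and 0 in MRL/+ libraries at 16 weeks, at least 29.7-fold higher. Without any 1 of the 3 MRL/+ libraries of its age the call was lost for Ccl6 (adjusted p from 0.0784 to 0.117 at 12 weeks and from 0.0948 to 0.139 at 16 weeks), Ccrl2 (0.0797 to 0.128 and 0.0639 to 0.084), Ccr7 at 12 weeks (0.102 to 0.133), Ccr6 at 16 weeks (0.0643 to 0.131) and Ccr8 at 16 weeks (0.112 to 0.137). Leaving out single MRL/lpr libraries also ended the call for Ccr7 at 12 weeks (replicate 1, 0.0506) and, at 16 weeks, for Ccl6 (replicates 1 and 3, 0.0599 and 0.057), Ccr6 (replicates 1 and 4, 0.054 and 0.0515) and Ccr8 (replicates 1 to 4, 0.0589 to 0.0807). Between 1 and 6 of the 18 were called at 12 weeks and 3 to 9 at 16 weeks with a single library left out. Ccl21a had 0 counts in every library.

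Of 6 cytokines that induce these chemokines, 4 were tested, with a median log2 fold change of 2.81 at 12 weeks and 4.04 at 16 weeks when genes at 0 in MRL/+ stand at their bound (3.19 and 5.61 as fitted). Tnf, Il1a and Ifng lay below the filter's floor in every MRL/+ library, so they could pass the filter only through MRL/lpr libraries. Tnf was higher at both ages, with 124 counts in MRL/lpr and 2 in MRL/+ libraries at 12 weeks (ratio 32.2, counting interval 8.72 to 268, adjusted p = 0.04) and 158 in MRL/lpr and 0 in MRL/+ libraries at 16 weeks (at least 23.1-fold, adjusted p = 0.012). Ifng, the interferon of T and natural killer cells, had 89 counts in MRL/lpr and 0 in MRL/+ libraries at 12 weeks (at least 15.4-fold, adjusted p = 0.0504) and 125 in MRL/lpr and 0 in MRL/+ libraries at 16 weeks (at least 18.3-fold, adjusted p = 0.031). Il1a passed at 16 weeks, with 81 counts in MRL/lpr and 2 in MRL/+ libraries (ratio 17.8, counting interval 4.76 to 149, adjusted p = 0.013). Il1b did not pass at either age, with log2 fold changes of 0.94 (SE 0.73, adjusted p = 0.48) and 1.15 (SE 0.75, adjusted p = 0.31). The 12-week call of Tnf was lost without any 1 MRL/+ library (adjusted p from 0.125 to 0.163) and without MRL/lpr replicate 1 (0.0687). At 16 weeks the call was lost for Ifng without any 1 MRL/+ library (0.0851 to 0.104) or MRL/lpr replicate 1 (0.0504), for Tnf without MRL/+ replicate 1 (0.0513) or 3 (0.0577), and for Il1a without MRL/+ replicate 2 (0.0685) or 3 (0.0823).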

How the data were processed

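RNA libraries (TruSeq RNA kit v2, per the labels' protocols) of 18 choroid plexus samples were analysed. The authors deposited raw counts per gene with exon lengths in bases, and the submitters' processing notes name STAR 2.5.3a, featureCounts 1.26.0, DESeq2 1.16.1 and build GRCm38, while the strand setting is not given in the sources used here. Genes were filtered with filterByExpr (minimum count 10), scaled by TMM and tested with edgeR 4.0.16 (quasi-likelihood, robust, 1 mean per group over all 18 libraries), with Benjamini-Hochberg adjustment over 16598 genes. Standard errors were the log2 fold change divided by the square root of F. Levels are CPM, and correlations used log2 CPM with a prior count of 2. Ratios and shares were compared by exact permutation (84 splits of 6 against 3). Intervals of 95% and floors of 3 counts cover counting error only. Total counts of 11164284 to 14602253 give few counts for these genes in MRL/+.

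The 9 genes and all lists were chosen with earlier results of these data known. Named were the 9 genes, each listed CC gene or cytokine called in a strain comparison or at 0 everywhere, and the 2 genes most correlated with each of the 9. Ccl9, Ccl11, Il1b, Ackr1 and Gm17268 were named after their values were seen. Replicate pairs differed by more than sampling noise (36 pairs, chi-square per gene at least 6.1). The test was checked on simulated data, and alternatives used R 4.3.3, limma 3.58.1 and DESeq2 1.42.0. One listed gene that the lists' counts include is not reported here.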

Additional observations from a re-analysis of the deposited data

Results flagged for a closer look

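Of the 18 sets of 6 MRL/lpr libraries (9 genes at 2 ages), 5 held a library far from its group, by the gap to the nearest library over the range of the group. Chance alone gives about 1 in 20 for a single set of normally distributed values. The 9 genes were read in the same libraries and largely moved together, so the 18 sets are not separate trials and the 5 are not compared with that rate. MRL/lpr 12 weeks replicate 1 was the far library for Ccl7 (8.17 CPM), Ccl8 (279.6 CPM), Ccl12 (15.6 CPM) and Ccr2 (50.1 CPM), and MRL/lpr 16 weeks replicate 1 for Ccl2 (15.6 CPM). The 12-week library also had the largest macrophage marker sum of its group (3770 CPM) and pineal gland markers at 66.7 CPM, and the part of these in its levels was not tested.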

How the results depend on the processing

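All 9 genes kept a positive strain difference in each fit, and the count called stayed at 8 at 12 weeks except 7 with limma voom (Ccl5 lost, adjusted p = 0.055), 3 without the 4 libraries highest in pineal gland, cerebellum or skeletal muscle markers (chosen after seeing the data) and 6 to 8 with 1 library left out. At 16 weeks it was 9 with DESeq2, limma voom and scaling to epithelial markers, 7 with only the compared groups (Ccr1, adjusted p = 0.0518) and 5 to 9 with 1 library left out. No age or interaction call of the 9 genes appeared under any setting. Without the 4 libraries the Ccl8 share difference was 58.7 points at 12 weeks and 4.27 between ages, and the Ccl8 ratio to macrophage markers 27.7 at 12 weeks, with exact p of 0.0667, 0.0524 and 0.0667; 4 against 2 libraries cannot go below 0.0667. With 1 library left out the share difference between ages ran from 3.32 to 5.11 points. The age ratio of Ccl8 was 1.86 against Csf1r and 1.35 against T cell markers.

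Counts over all genes moved more. Genes higher at 12 weeks (832) were 1336 with DESeq2, 1595 with limma voom, 28 without the 4 libraries and 225 to 969 with 1 left out. Genes lower at 12 weeks (223) were 130 with DESeq2 size factors, 9 with epithelial scaling, 61 unfiltered, 1920 with limma voom, 85 with only the compared groups, 6 without the 4 and 34 to 494 with 1 left out. Genes higher at 16 weeks (1410) were 7763 with epithelial scaling, 2414 with limma voom, 450 without the 4 and 563 to 1717 with 1 left out. Genes lower at 16 weeks (439) were 26 with epithelial scaling, 171 unfiltered, 2450 with limma voom, 53 without the 4 and 92 to 879 with 1 left out. Under epithelial scaling all tested genes had a median of 0.30 at 12 weeks and 0.77 at 16 weeks on the log2 scale, and the 9 genes stayed higher relative to it. Between ages in MRL/lpr, 3 genes were higher and 3 lower; these were 37 and 47 with DESeq2, 9 and 12 with limma voom, 0 and 0 with only the compared groups or without the 4, 0 lower with epithelial scaling, and 1 to 3 higher and 0 to 6 lower with 1 left out. In MRL/+ DESeq2 gave 4 higher and 8 lower and limma voom 898 and 826, where edgeR gave 0 and 0 (2173 at an unadjusted p under 0.05).

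Of the other CC genes, 3 (unfiltered), 9 (DESeq2), 11 (limma voom) and 0 (without the 4) were called at 12 weeks, and 13 (epithelial scaling), 11 (limma voom), 4 (only the compared groups) and 3 (without the 4) at 16 weeks. Ackr1, a decoy receptor, changed sign at 12 weeks with limma voom (log2 fold change 1.38, adjusted p = 0.0317, against -0.19 with edgeR). The cause of these changes was not tested.

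The deviations of same-numbered libraries had correlations from -0.619 to 0.45 (15 pairs, 4 over 0.1). With so few libraries per group, these values cannot show whether the replicate numbers mark pairs or batches. With the replicate block 8 of the 9 genes were called at each age, 212 genes were lower at 16 weeks, and 1 gene was higher and 0 lower between ages in MRL/lpr.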
